A study of Mus musculus with 6 samples.

Results

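The genes described here encode the autophagy machinery and its cargo receptors. They were followed in remnant mouse liver 12 h after surgical removal of 70% of the organ (partial hepatectomy, PHx, a standard model of liver regeneration). A list of 42 genes was fixed by name, and a gene was measured if a probe set of the array was annotated to that gene alone. This gave 36 measured members among 17097 genes tested. Of the other 6, Atg4d and Sqstm1 (p62) were covered only by probe sets shared with another gene, and Atg4a, Map1lc3b, Optn and Calcoco1 were not analysed here. The 3 control livers came from wildtype C57Bl/6 mice. The other 3 came from mice labelled DeltaKlf6, also of strain C57Bl/6, in which Klf6 is deleted in hepatocytes only. All 6 animals had the same surgery and time point, and each array is 1 animal. The overall study used 6 animals per group. No source used here gives the Cre driver, the deleted part of the gene or the ages. Values are log2 expression values, so a difference of 1 is a 2-fold difference. Since Klf6 encodes a zinc-finger transcription factor, the comparison asks which transcripts of the regenerating liver differ when hepatocytes lack it.

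Macroautophagy delivers cytoplasm and organelles to the lysosome inside a vesicle with a double membrane. A kinase complex around ULK1 starts the process, and a lipid kinase complex around Beclin 1 then marks the membrane where the vesicle nucleates. Lipid transfer proteins and scramblases enlarge that membrane, while conjugation enzymes attach the small ubiquitin-like ATG8 proteins to it. Cargo receptors bind both ATG8 proteins and ubiquitinated cargo. In hepatocytes autophagy is known for supplying amino acids and fatty acids during fasting and for removing damaged mitochondria, lipid droplets and protein aggregates.

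Klf6 and the array controls set limits on every comparison. In wildtype the 3 Klf6 probe sets lay at 4.43 to 5.20, 3.73 to 4.44 and 3.41 to 4.03. In the library labelled DeltaKlf6 1 they lay above every wildtype array, at 7.03, 5.88 and 5.81, so Klf6 goes against the label there. In DeltaKlf6 2 they lay at 4.61, 4.12 and 2.82, and in DeltaKlf6 3 at 3.15, 3.74 and 2.83. The values 4.61 and 4.12 of DeltaKlf6 2 and 3.74 of DeltaKlf6 3 lay inside the wildtype ranges. By group mean the 3 probe sets differed by 0.023, 0.517 and 0.135, so none showed lower Klf6 in DeltaKlf6. Whether these probe sets lie in the deleted part of the gene was not tested. Bulk liver also holds cells other than hepatocytes, in which Klf6 is not deleted. Directions below are therefore between libraries as labelled. The Gapdh 3' signal minus its 5' signal, a difference of log2 values and not a ratio, was 4.06 to 4.43 in wildtype. It was 3.47 and 3.45 in DeltaKlf6 1 and 2, and 4.83 in DeltaKlf6 3. The 3' signal was thus far above the 5' signal in all 6 arrays. The same measure for beta-actin was 4.86 to 5.39 in wildtype, 4.22 or less in DeltaKlf6 1 and 2, and 5.05 in DeltaKlf6 3, inside the wildtype range. Hybridization controls had a mean of 11.22 in DeltaKlf6 3 and 9.86 to 10.34 in the other 5 arrays. The upper quartile of all values was 5.08 in DeltaKlf6 3 and 5.50 to 5.63 in the other 5 arrays. The tissue label fits its markers: 9 hepatocyte markers had a mean of 12.07 to 12.41 in all arrays.

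No member of the autophagy machinery differed past the threshold between the labelled groups. With limma's moderated test and Benjamini-Hochberg adjustment over all genes, 0 of 36 members had an adjusted p under 0.05 (lowest adjusted p = 0.992), and 0% of the 17097 genes did. At an unadjusted p under 0.05 stood 1 member, Atg9a, beside 3.69% of all genes (631). By group mean 27 of the 36 members were lower in DeltaKlf6, beside 51.6% of all genes. Of these, Atg2a, Wipi2 and Atg7 differed by less than 0.01. In all, 20 members were lower by more than 0.1 on the log2 scale, beside 37.8% of all genes, while 6 were higher by more than 0.1, beside 34.9% of all genes. The median difference of the members was -0.14, beside -0.01 for all genes. Without DeltaKlf6 3 the median was -0.03 and 20 members were lower. The sign of the difference turned for 18 of the 36 members when a single array was left out. The groups of 3 did not overlap for 4 members, all lower in DeltaKlf6 (Atg9a, Atg14, Map1lc3a and Rb1cc1), beside 5.91% of all genes. No member was higher without overlap, beside 3.41% of all genes. In bulk tissue fewer cells of a type and less RNA per cell cannot be told apart.

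**Figure D1:**
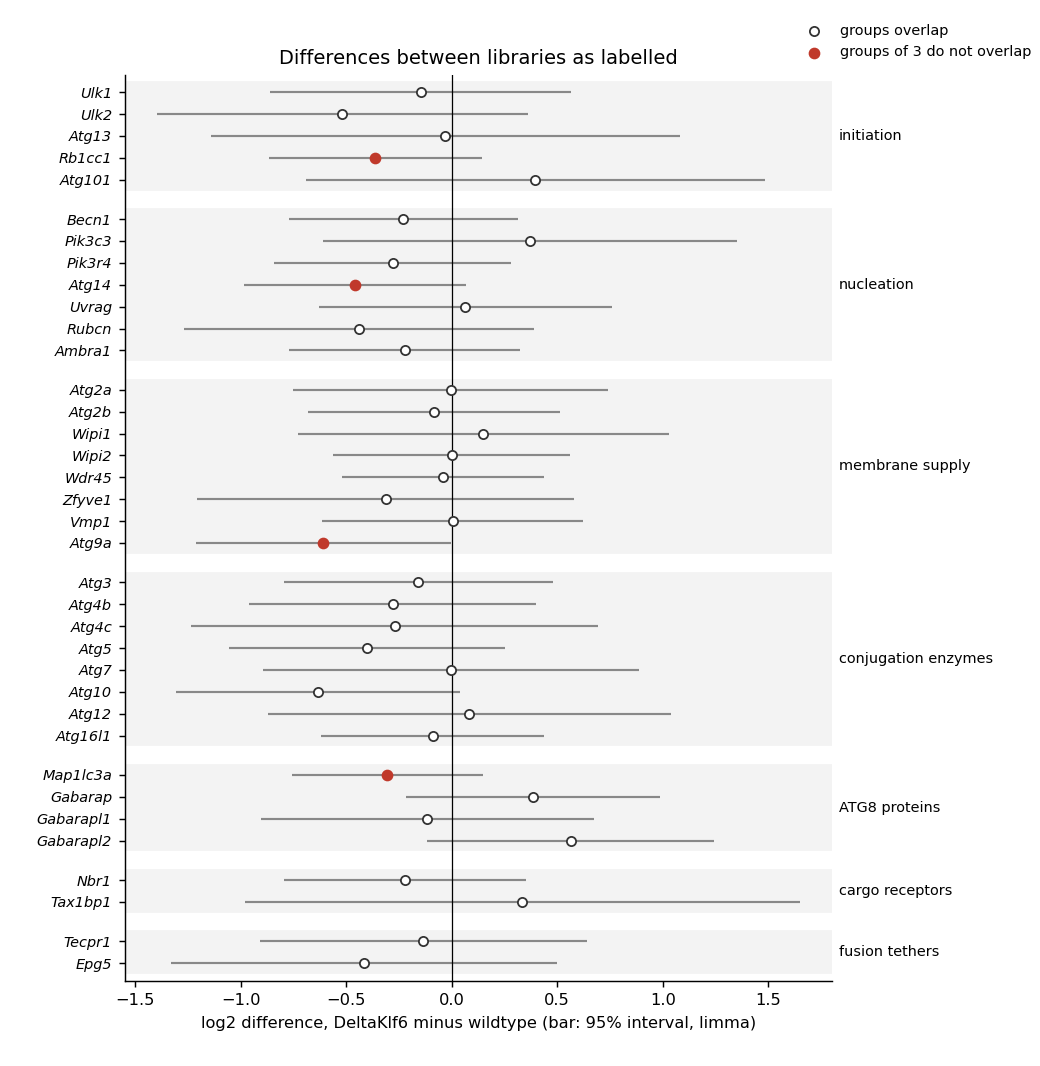
Log2 difference, DeltaKlf6 minus wildtype, for each of the 36 measured autophagy genes on the horizontal axis, grouped by step, with points for the differences (red for the 4 genes whose groups did not overlap) and bars for their 95% intervals from limma. The interval ends short of 0 for Atg9a alone, at -0.003, and differences run from -0.64 (Atg10) to 0.56 (Gabarapl2).

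Because the deleted gene encodes a promoter-binding factor, the 250 bases before the annotated start are shown for 4 members that the differences below turn on. These are Atg9a and Atg14, whose groups did not overlap, Gabarapl2, the member with the highest difference, and Atg7, whose group means were equal. The sequences are from RefSeq (GRCm38.p6) and read 5′ to 3′ on the gene's strand. Capitals mark the motifs CACCC and GGGCGG, the CACCC element and GC box that KLF and SP factors are known to bind, searched on both strands (GGGTG and CCGCCC on the other). The windows are chr1:75192011-75192260 (minus strand), chr14:47568435-47568684 (minus strand), chr8:111940453-111940702 (plus strand) and chr6:114670846-114671095 (plus strand).
Atg9a: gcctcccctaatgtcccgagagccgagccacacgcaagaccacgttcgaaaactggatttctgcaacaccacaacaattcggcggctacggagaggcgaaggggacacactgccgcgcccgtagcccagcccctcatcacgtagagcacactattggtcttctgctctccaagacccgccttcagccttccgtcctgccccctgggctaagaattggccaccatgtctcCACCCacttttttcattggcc
Atg14: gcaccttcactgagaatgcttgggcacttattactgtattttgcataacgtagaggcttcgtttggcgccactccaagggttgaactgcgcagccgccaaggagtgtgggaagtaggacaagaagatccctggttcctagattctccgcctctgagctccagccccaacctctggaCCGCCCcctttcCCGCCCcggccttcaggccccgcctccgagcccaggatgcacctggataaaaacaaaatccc
Gabarapl2: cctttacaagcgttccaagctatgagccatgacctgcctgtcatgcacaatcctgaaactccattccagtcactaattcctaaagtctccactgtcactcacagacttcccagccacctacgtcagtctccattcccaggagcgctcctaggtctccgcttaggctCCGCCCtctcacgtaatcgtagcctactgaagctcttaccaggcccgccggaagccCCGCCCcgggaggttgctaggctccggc
Atg7: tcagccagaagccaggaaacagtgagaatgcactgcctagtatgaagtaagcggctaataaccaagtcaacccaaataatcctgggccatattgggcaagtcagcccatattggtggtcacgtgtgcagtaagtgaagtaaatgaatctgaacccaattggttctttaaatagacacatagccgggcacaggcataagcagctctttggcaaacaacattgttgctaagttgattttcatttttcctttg
The Atg9a window holds 1 CACCC motif, the Atg14 and Gabarapl2 windows hold 2 GGGCGG motifs each, and the Atg7 window holds neither. Atg14, lower by group mean, and Gabarapl2, higher by group mean, both carry GGGCGG and lack CACCC. The 4 genes were picked by their differences, and none differed past the threshold. Promoter entries matched 29 of the 36 measured members, 36 windows in all. CACCC stood in 52.8% of them and in 52.0% of the 32851 promoters of the same length, and GGGCGG in 41.7% and 32.7%. Wipi1, which binds the lipid made at the nucleation site, had the most GGGCGG motifs (8) with a difference of 0.15. A motif match is a description and does not show binding.

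The kinase complex that initiates autophagy had 5 measured members, 4 lower and 1 higher by group mean (median difference -0.15). The median was 0.02 without DeltaKlf6 3 and 0.03 without wildtype 1. Ulk2, a kinase close to ULK1, was at 6.98, 7.08 and 7.02 in wildtype and at 5.60, 7.12 and 6.80 in DeltaKlf6 (difference -0.52, SE 0.38, limma adjusted p = 0.992). On this probe set only DeltaKlf6 1 was far below the narrow wildtype range, and DeltaKlf6 2 lay above it. Without DeltaKlf6 1 the difference of Ulk2 on it was -0.06. Other probe sets of Ulk2 differed by -0.82, -0.15 and 0.19. On the one at -0.82, DeltaKlf6 1 (4.84) and DeltaKlf6 3 (4.89) both lay below wildtype (6.06 to 6.37). Rb1cc1, the scaffold also called FIP200, was at 2.41, 2.18 and 2.71 in wildtype and at 2.12, 2.10 and 1.98 in DeltaKlf6 (-0.36, SE 0.22, limma adjusted p = 0.992). Its groups did not overlap, by a gap of 0.06, and the difference was -0.22 without wildtype 3. Its 1 probe set lay under the median of every array (3.30 to 3.45), where detection was not assessed. Ulk1, the main initiating kinase, had group means of 7.81 ± 0.34 and 7.66 ± 0.49 (SD, n = 3 in each group) in wildtype and DeltaKlf6. Atg13, the subunit through which nutrient signals reach the kinase, ran from 5.08 in DeltaKlf6 3 to 7.21 in DeltaKlf6 1, beside 6.13 to 6.41 in wildtype. The group means of Atg13 were 6.26 and 6.23, and the difference was 0.54 without DeltaKlf6 3 and -0.52 without DeltaKlf6 1. Atg101, the partner of Atg13, reached 6.46 in DeltaKlf6 2, beside 4.59 to 5.28 in wildtype, and without that library its difference was -0.14.

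The lipid kinase complex of nucleation and its regulators had 5 of 7 members lower and 2 higher by group mean (median difference -0.23, and -0.08 without DeltaKlf6 3). Atg14, the subunit that directs the complex to autophagy, was at 6.04, 5.83 and 5.45 in wildtype and at 5.44, 5.23 and 5.28 in DeltaKlf6. The difference was -0.46 (SE 0.23, limma adjusted p = 0.992), which is 0.728 times the wildtype level. The groups of Atg14 did not overlap, but wildtype 3 and DeltaKlf6 1 were 0.01 apart. Becn1, encoding Beclin 1, was at 9.51, 9.86 and 9.67 in wildtype and at 9.75, 9.44 and 9.15 in DeltaKlf6. DeltaKlf6 1 lay within the wildtype range of Becn1 and the other 2 below it (-0.23, SE 0.24, 95% interval -0.77 to 0.31), and without DeltaKlf6 3 the difference was -0.08. Rubcn, which encodes the inhibitor Rubicon, was at 5.18, 4.78 and 4.78 in wildtype and at 4.44, 5.20 and 3.78 in DeltaKlf6 (-0.44, SE 0.36). For Rubcn the DeltaKlf6 libraries lay on both sides of the wildtype range, and without DeltaKlf6 3 the difference was -0.09.

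The catalytic subunit of the same complex varied more than its partners among the DeltaKlf6 libraries (SD 0.92), but not among wildtype (SD 0.15). Pik3c3 (VPS34) was at 3.55, 3.83 and 3.63 in wildtype and at 4.68, 4.45 and 2.99 in DeltaKlf6. DeltaKlf6 1 and 2 were thus above and DeltaKlf6 3 below every wildtype array. The wildtype values were close to the array medians (3.30 to 3.45), and the value in DeltaKlf6 3 lay under them. Over 3 libraries the difference was 0.37 (SE 0.43), and without DeltaKlf6 3 it was 0.90 (SE 0.21, limma adjusted p = 0.412). Its regulatory partner Pik3r4 (VPS15) had a difference of -0.28 and Ambra1, which ties Beclin 1 to the initiating kinase, one of -0.22. Uvrag, the subunit of the endosomal form of the complex, differed by 0.06 and by -0.18 without DeltaKlf6 1. In DeltaKlf6 3 all 7 members of the nucleation step lay below the wildtype range, as did all 5 of initiation, beside 35.1% of all genes.

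Of 8 genes for membrane supply and lipid transfer, 6 were lower and 2 higher by group mean, with a median difference of -0.02 (0.01 without DeltaKlf6 2, -0.12 without DeltaKlf6 1). Atg9a, encoding the scramblase of the vesicles that seed the membrane, had the lowest unadjusted p of all members. It was at 7.53, 7.39 and 7.07 in wildtype and at 6.31, 6.79 and 7.06 in DeltaKlf6 (-0.61, SE 0.26, unadjusted p = 0.0491 and adjusted p = 0.992 by limma). All 3 DeltaKlf6 libraries were below wildtype, with DeltaKlf6 3 under wildtype 3 by only 0.01, and the mean was 0.656 times the wildtype level. Without DeltaKlf6 1 the difference was -0.40. Zfyve1, whose protein DFCP1 marks the membrane platform, was at 6.96, 7.03 and 6.53 in wildtype and at 5.68, 7.21 and 6.69 in DeltaKlf6. Its difference of -0.31 (SE 0.39) rests on DeltaKlf6 1, and without that library it was 0.11. Vmp1, a scramblase of the endoplasmic reticulum, had equal group means (10.66 ± 0.06 and 10.67 ± 0.46, SD, n = 3 each). The lipid transfer genes Atg2a (0.00) and Atg2b (-0.08) and the lipid-binding Wipi2 (0.00) and Wdr45 (-0.04) differed by less than 0.1. Wipi1 differed by 0.15 on its brightest probe set and by -0.72 to 0.30 on its 5 others.

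Among the conjugation enzymes 7 of 8 were lower and 1 was higher by group mean. Their median difference was -0.21, and it was -0.07 without DeltaKlf6 3 and -0.05 without wildtype 2. Atg10, the enzyme that transfers ATG12 to ATG5, was at 5.68, 5.98 and 6.06 in wildtype and at 4.72, 5.41 and 5.70 in DeltaKlf6. The difference was -0.64 (SE 0.29, limma adjusted p = 0.992), the most negative of all members, and the groups overlapped only because DeltaKlf6 3 lay just above wildtype 1. Without DeltaKlf6 1, whose Klf6 goes against its label, Atg10 differed by -0.36 and Atg9a by -0.40. Atg5, its acceptor, was at 7.38, 7.72 and 7.44 in wildtype and at 7.49, 7.28 and 6.56 in DeltaKlf6 (-0.40, SE 0.28). DeltaKlf6 2 and 3 were below the wildtype range and DeltaKlf6 1 was within it. Without DeltaKlf6 3 the difference of Atg5 was -0.13. The other 2 probe sets of Atg5 had differences of 0.06 and 0.01. Atg7, the activating enzyme of both conjugation systems, was at 5.63, 5.75 and 5.21 in wildtype and at 5.67, 6.22 and 4.70 in DeltaKlf6. The Atg7 means were equal (5.53 in both groups, 95% interval of the difference -0.89 to 0.89), while DeltaKlf6 2 lay above and DeltaKlf6 3 below every wildtype array. The interval allows differences of this size in either direction, so the test does not show that Atg7 was alike in the groups.

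The remaining 5 conjugation genes differed by -0.28 to 0.08. Atg3, the enzyme that attaches ATG8 proteins to lipid, differed by -0.16, and Atg16l1, which places that reaction on the membrane, by -0.09. The proteases that process ATG8 proteins, Atg4b and Atg4c, differed by -0.28 and -0.27. Atg4c was at 4.43 in DeltaKlf6 1, beside 5.25 to 5.97 in wildtype and 6.08 in DeltaKlf6 2, and without DeltaKlf6 1 its difference was 0.17. Atg12, the ubiquitin-like protein joined to ATG5, differed by 0.08 and ran from 6.34 in DeltaKlf6 3 to 7.94 in DeltaKlf6 1.

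The ATG8 genes divided by group mean into 2 lower and 2 higher (median difference 0.13, and -0.03 without DeltaKlf6 2). Map1lc3a, encoding LC3A, was at 11.07, 10.86 and 11.02 in wildtype and at 10.65, 10.61 and 10.76 in DeltaKlf6. The groups did not overlap, with a gap of 0.10 and a difference of -0.31 (SE 0.20, limma adjusted p = 0.992). That probe set is of a type that can match several transcripts, and the other probe set of Map1lc3a overlapped between groups (-0.12). Gabarapl2, encoding GATE-16, was at 7.33, 8.09 and 8.03 in wildtype and at 8.57, 8.59 and 7.97 in DeltaKlf6. The difference was 0.56 (SE 0.29, 1.48 times wildtype, limma adjusted p = 0.992), the highest of all members. DeltaKlf6 1 and 2 lay above every wildtype array and DeltaKlf6 3 within their range. Without wildtype 1 the difference was 0.32.

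The related Gabarap was at 9.83, 10.42 and 10.18 in wildtype and at 10.53, 10.85 and 10.20 in DeltaKlf6 (0.38, SE 0.26, limma adjusted p = 0.992). As for Gabarapl2, DeltaKlf6 1 and 2 were above wildtype and DeltaKlf6 3 was inside the range. The Gabarap difference was 0.22 without DeltaKlf6 2 and 0.23 without wildtype 1. Gabarapl1 was at 8.96, 9.61 and 8.59 in wildtype and at 8.46, 9.39 and 8.97 in DeltaKlf6 (-0.12, SE 0.34), so its groups overlapped widely, and its sign turned without DeltaKlf6 1 (0.13) or wildtype 2 (0.16). In DeltaKlf6 1 and 2, where Gabarap and Gabarapl2 were high, the 3' signal of Gapdh and beta-actin exceeded the 5' signal by less than in any wildtype array (above). Its part in these values was not tested.

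Cargo receptors were represented by 2 of 5 genes, 1 higher and 1 lower by group mean. Nbr1, a receptor for ubiquitinated proteins and peroxisomes, was at 9.20, 9.24 and 9.35 in wildtype and at 8.63, 9.40 and 9.10 in DeltaKlf6 (-0.22, SE 0.25). DeltaKlf6 1 and 3 were below wildtype and DeltaKlf6 2 was above it. The difference of Nbr1 rests on DeltaKlf6 1, and without that library it was -0.01. Tax1bp1, a receptor that binds ubiquitin and recruits the initiating kinase, was at 6.84, 7.06 and 6.41 in wildtype and at 8.15, 7.46 and 5.69 in DeltaKlf6 (0.33, SE 0.57). Its DeltaKlf6 SD of 1.27 was the largest of all members, beside 0.34 in wildtype. Without DeltaKlf6 3 the Tax1bp1 difference was 1.04 (SE 0.30, limma adjusted p = 0.457), without DeltaKlf6 1 it was -0.19, and the other 2 probe sets of Tax1bp1 had differences of -0.20 and -0.17.

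The tethers that bring the finished vesicle to the lysosome were both lower by group mean (median difference -0.28, and 0.07 without DeltaKlf6 3). Epg5 was at 5.67, 5.66 and 5.54 in wildtype and at 5.58, 5.81 and 4.24 in DeltaKlf6 (-0.42, SE 0.40). That difference rests on DeltaKlf6 3, and without it the value was 0.07. Tecpr1 was at 6.29, 5.15 and 5.70 in wildtype and at 5.81, 5.77 and 5.16 in DeltaKlf6 (-0.14, SE 0.34), with full overlap, and its sign turned without wildtype 1 (0.16) or DeltaKlf6 3 (0.08).

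**Figure D2:**
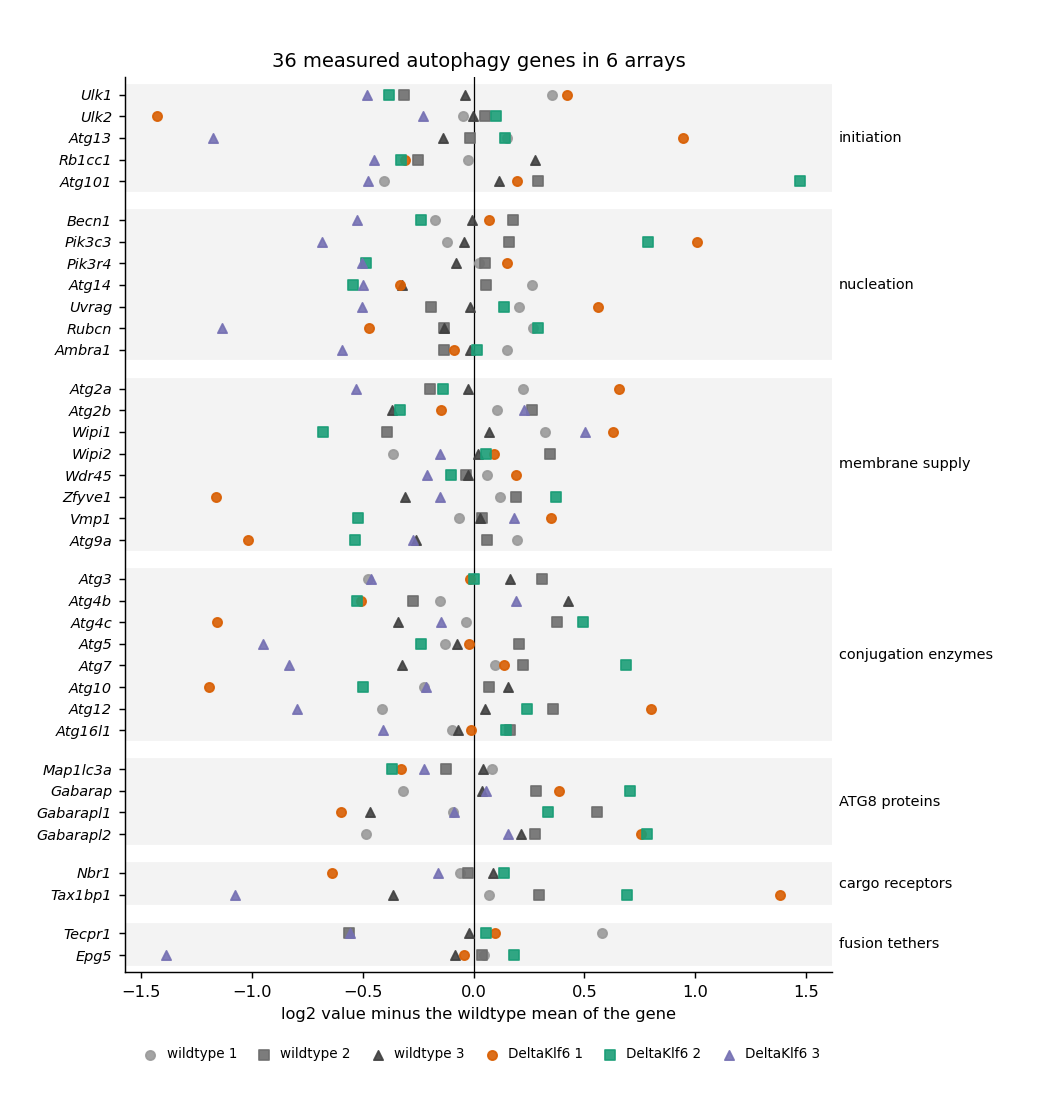
Log2 value minus the wildtype mean of the gene (horizontal axis) for the 36 measured autophagy genes, with 1 point per array, grey for wildtype and coloured for DeltaKlf6. Points of DeltaKlf6 1 lie far left for Ulk2, Zfyve1, Atg9a, Atg4c and Atg10 and far right for Tax1bp1, while those of DeltaKlf6 3 lie far left for Epg5, Atg13, Rubcn and Tax1bp1.

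The members varied more among the DeltaKlf6 livers than among the wildtype livers, as did most genes. The SD was larger in DeltaKlf6 for 27 of 36 members, beside 68.1% of all genes. The median SD of the members was 0.25 in wildtype and 0.46 in DeltaKlf6, beside 0.24 and 0.35 for all genes. All 3 DeltaKlf6 libraries lay on the same side of the wildtype mean for 8 members. There were 6 below, beside 17.7% of all genes, and 2 above, beside 12.3% of all genes. The share below is near that of all genes. The 2 above were Gabarap and Gabarapl2.

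DeltaKlf6 3 was the lowest of the 6 arrays for 18 of 36 members, beside 25.6% of all genes. It lay below the wildtype range for 23 members (beside 35.1% of all genes) and above it for 2 (beside 27.2% of all genes). The members' median value relative to wildtype was -0.46 in DeltaKlf6 3, beside -0.06 for all genes in that array, and 0.03 and 0.06 in DeltaKlf6 1 and 2. All genes are not matched to the members in brightness. The members had a mean level of 6.95 to 7.06 in wildtype, beside 5.05 to 5.09 for all genes. The upper quartile of all values was lower in DeltaKlf6 3 than in any other array (above). By step, the DeltaKlf6 3 medians were -0.48 for initiation, -0.53 for nucleation and -0.43 for the conjugation enzymes. They were -0.15 for membrane supply and -0.01 for the ATG8 genes. In this array 10 markers of sinusoidal endothelium had a mean of 6.30, beside 6.69 to 6.86 in wildtype and 6.72 and 6.81 in DeltaKlf6 1 and 2. These markers did not move together: 5 lay below the wildtype range and 2 above it. The 10 stellate cell and fibroblast markers had a mean of 5.54 in DeltaKlf6 3, beside 5.84 to 6.07 in wildtype and 6.02 and 6.28 in DeltaKlf6 1 and 2. Of these, 6 lay below the wildtype range and 1 above it. The hepatocyte mean was 12.07, beside 12.10 to 12.15 in wildtype. The part of brightness, of these markers and of the array controls in the low member values was not tested.

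DeltaKlf6 1, the library with high Klf6, was the lowest array for 7 members (19.4%), beside 20.3% of all genes. These were Ulk2, Zfyve1, Atg9a, Atg4c, Atg10, Gabarapl1 and Nbr1. It was the highest for 11 of the 36 members, beside 19.3% of all genes. DeltaKlf6 2 was the lowest for 5 members, beside 16.4% of all genes, and the highest for 10, beside 18.3% of all genes. In DeltaKlf6 2 the 12 macrophage markers had a mean of 8.08, beside 7.16 to 7.49 in wildtype and 7.45 and 7.31 in DeltaKlf6 1 and 3. The part of these markers in the DeltaKlf6 2 values was not tested.

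**Figure D3:**
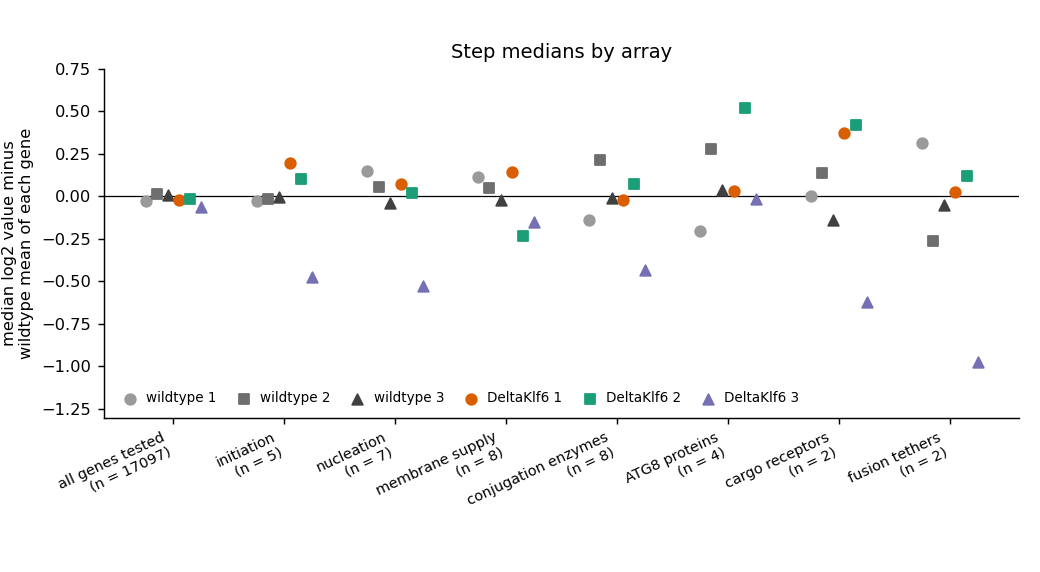
Median log2 value minus the wildtype mean of each gene (vertical axis) for all genes tested and for each autophagy step, with 1 point per array. DeltaKlf6 3 is the lowest point for initiation (-0.48), nucleation (-0.53), the conjugation enzymes, the cargo receptors (2 genes) and the fusion tethers (2 genes).

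Other probe sets of the same genes often disagreed in direction. Of the 36 members 21 had several probe sets, and for 8 of these every probe set had the same sign. Over all 21, the sign of the brightest was found in 16 of 36 other probe sets. Of the 27 that lay above the median probe set (3.33), 14 had it, so many of the others were dim. Among the 14 members with several probe sets and a brightest difference of more than 0.1, the other probe sets had its sign in 11 of 25 cases. The sign held in every probe set for Becn1 (-0.23, -0.11 and -0.04), Atg4b (-0.28 and -0.47, the latter without overlap), Map1lc3a, Gabarapl1 (-0.12 and -0.66) and Nbr1 (-0.22 and -0.29). The other probe sets of Atg7 had differences of 0.16, 0.07 and 0.60. Atg9a, Atg14, Atg10, Gabarap and Gabarapl2 had a single probe set, so they have no such check. No probe set of a member passed when all 45037 were tested.

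**Figure D4:**
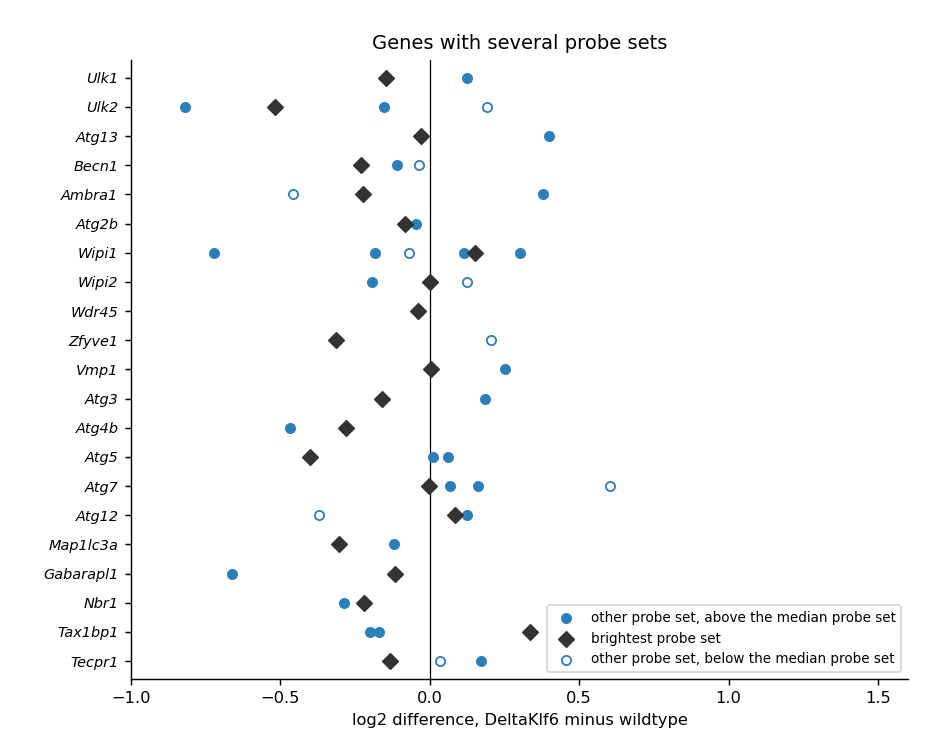
Log2 difference, DeltaKlf6 minus wildtype (horizontal axis), for the 21 autophagy genes with several probe sets; diamonds are the brightest probe set used in the text and circles the others, filled if above the median probe set (3.33). Circles and diamond lie on both sides of 0 for genes such as Ambra1, Wipi1 and Tax1bp1, and on 1 side for Becn1, Atg4b and Nbr1.

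Genes around the core machinery were taken from 4 lists, in which 58 of 63 genes were measured. None passed the test (0 of 58, 0% of all genes, limma). By group mean 14 were higher and 44 lower, beside 51.6% of all genes lower. The median difference was -0.12, beside -0.01 for all genes. These genes too were brighter, with a mean level of 7.43 to 7.51 in wildtype, beside 5.05 to 5.09 for all genes. Their median value relative to wildtype was -0.18, -0.08 and -0.20 in DeltaKlf6 1, 2 and 3. In DeltaKlf6 3, 29 of the 58 lay below the wildtype range (beside 35.1% of all genes) and 5 above it (beside 27.2%). The part of brightness and of that array in the lower values was not tested. The groups did not overlap for 6 genes lower in DeltaKlf6, beside 5.91% of all genes, and for 1 higher, beside 3.41%. Prkaa2 (-0.53) and Foxo3 (-0.34) are among the 6. Of 23 upstream regulators 18 were lower. Mtor, the nutrient-sensing kinase that restrains the initiating complex, was at 8.72, 8.34 and 8.52 in wildtype and at 7.68, 7.71 and 7.99 in DeltaKlf6. Its groups did not overlap, with a gap of 0.35 and a difference of -0.73 (SE 0.21, limma adjusted p = 0.992). Averaged over its probe sets, Mtor differed by -0.16. Prkaa1, a catalytic subunit of the energy sensor AMPK that activates the same complex, also did not overlap (-0.64, SE 0.21), at 2.81 to 3.19 in wildtype and 2.31 to 2.46 in DeltaKlf6. All of these Prkaa1 values lay under the array medians.

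Among receptors for whole organelles 11 of 14 were lower and 3 higher by group mean. Bcl2l13, a mitophagy receptor, was at 6.89, 6.43 and 6.48 in wildtype and at 5.70, 6.16 and 5.28 in DeltaKlf6 (-0.89, SE 0.28, limma adjusted p = 0.992). Bnip3, another mitophagy receptor, was at 10.23, 10.32 and 10.32 in wildtype and at 9.88, 9.32 and 9.96 in DeltaKlf6 (-0.57, SE 0.24, limma adjusted p = 0.992). Averaged over probe sets Bcl2l13 differed by -0.55, and without DeltaKlf6 2 Bnip3 differed by -0.37. Both had all 3 DeltaKlf6 libraries below every wildtype array. Of 14 genes of lysosome fusion 10 were lower and 4 higher. Vps39, a subunit of the HOPS tether, was at 6.56, 6.25 and 6.45 in wildtype and at 6.89 or above in all 3 DeltaKlf6 libraries (0.51, SE 0.20, limma adjusted p = 0.992). Its groups did not overlap, while Vps33a of the same tether differed by -0.40 (SE 0.24) and by -0.24 averaged over its probe sets. Of 7 further machinery genes 5 were lower and 2 higher, with Atg9b at -0.35 (SE 0.22) and Sh3glb1, a membrane-bending partner of Beclin 1 complexes, at -0.33 (SE 0.27). Averaged over its probe sets Atg9b differed by -0.03, and without DeltaKlf6 2 Sh3glb1 differed by -0.10.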

How the data were processed

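Liver RNA of 6 animals was measured on 3' expression arrays, 1 per animal. The authors summarised probes with RMA, a method that gives log2 values, and the submitters' processing notes name Affymetrix Expression Console 1.2.1. Base 2 was inferred from RMA and from the highest deposited value, 13.95. The number of arrays limits the precision.

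Of 45141 probe sets (104 of them controls), 28898 were annotated to 1 gene, 551 to several and 15692 had no gene listed here. For each of 17097 genes the brightest probe set on average was kept. Genotypes were compared in R 4.3.3 by limma 3.58.1 (two-sided moderated test, lmFit then eBayes), with Benjamini-Hochberg adjustment over all genes and a threshold of 0.05. The calculation was tested on simulated data with the same wildtype-based spread in both groups. That does not test it under the larger DeltaKlf6 spread. Values in every array are given for Becn1 and Atg7, members without overlap, the 2 of smallest p per step, and ATG8 genes and receptors. From each related list the 2 genes of smallest p are named. Prkaa2 and Foxo3 are named because their groups did not overlap. Values of some other members, and the size of 0.1 for a small difference, were chosen after the values were seen. The members and lists were chosen with earlier results of these data known. Promoter sequences came from RefSeq (GRCm38.p6). The alternatives are in the closing section.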

Additional observations from a re-analysis of the deposited data

How the results depend on the processing

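No gene, member or related gene had a limma adjusted p under 0.05 in any setting tried: array weights, median centring, a second quantile normalization, a variance trend, robust variances, dim genes left out, averaging each gene's probe sets, no _s_at or _x_at probe sets, every probe set separately, a replicate block, and leaving out each array. At an unadjusted p under 0.05 stood 631 genes, 331 with dim genes left out, 1620 with every probe set, and 379 (without wildtype 3) to 1546 (without DeltaKlf6 3) with an array left out. Without wildtype 1 it was 388 and without DeltaKlf6 2 it was 1165. For members that count was 1, and 2 with array weights, 0 with median centring, dim genes left out or no _s_at or _x_at probe sets, and 0 to 5 with an array left out. The 5 came without DeltaKlf6 3, 2 without wildtype 3 and 0 without DeltaKlf6 1, wildtype 1 or wildtype 2. Atg9a was not the 1 gene in each setting: it was Atg10 with the replicate block, Gabarapl2 after a second quantile normalization, Rb1cc1 with a variance trend and Rubcn without DeltaKlf6 2.

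Between 23 and 27 members were lower with all arrays, and 20 (without DeltaKlf6 3) to 29 (without DeltaKlf6 1) with an array left out. The members' median difference was -0.22 to -0.03 with an array left out and -0.07 with averaged probe sets. The sign turned for 20 of 36 members in at least 1 setting, for 18 with an array left out and for 11 in another setting. It turned with array weights for Atg13 (0.243), Atg2a (0.115), Vmp1 (-0.069) and Atg7 (0.238), and with median centring for Atg2a (0.004) and Atg7 (0.006). With averaged probe sets it turned for Atg13 (0.184), Wipi1 (-0.068), Atg3 (0.012), Atg7 (0.207), Atg12 (-0.055), Tax1bp1 (-0.012) and Tecpr1 (0.024). With quantile normalization it turned for Atg13 (0.047), Atg2a (0.091), Atg2b (0.023), Vmp1 (-0.05) and Atg7 (0.065), and without _s_at and _x_at probe sets for Wipi1 (-0.723) and Atg5 (0.062).

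With an array left out the differences ran from -0.431 to 0.029 for Ulk1, -0.518 to 0.544 for Atg13, -0.141 to 0.833 for Atg101, -0.184 to 0.349 for Uvrag, -0.334 to 0.26 for Atg2a and -0.268 to 0.047 for Atg2b. They ran from -0.09 to 0.565 for Wipi1, -0.157 to 0.045 for Wdr45, -0.655 to 0.111 for Zfyve1, -0.169 to 0.265 for Vmp1, -0.653 to 0.172 for Atg4c and -0.347 to 0.413 for Atg7. They ran from -0.276 to 0.522 for Atg12, -0.209 to 0.068 for Atg16l1, -0.349 to 0.162 for Gabarapl1, -0.19 to 1.038 for Tax1bp1, -0.415 to 0.155 for Tecpr1 and -0.715 to 0.069 for Epg5. For the 3 Klf6 probe sets it was -1.03 to 0.91, -0.13 to 0.94 and -0.86 to 0.64, each lowest without DeltaKlf6 1, and quantile normalization gave -0.057 for the first. The cause was not tested. The other 16 members kept their direction in the settings run for them, though not always their size. The exception is Wipi2, which was at 0.00 and has no direction to keep. The 8 related genes of smallest unadjusted p in their lists also kept their direction, though not always their size. Prkaa2 and Foxo3 were not followed through the settings.

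Same-numbered arrays did not deviate together in every pair (correlations of -0.005, 0.26 and 0.08), and wildtype 1 and DeltaKlf6 3 correlated more (0.09) than the pair numbered 1. The replicate block left 27 members lower and called 0 genes.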
